A study of Homo sapiens with 12 samples.

Results

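CXXC5 overexpression was compared with an empty vector in K562, an established human leukaemia cell line with red cell features that the labels call an AML line. The comparison used 6 of the study's 12 Affymetrix 3' expression arrays. In the control group, 3 arrays measured cells given the plasmid pEGFP-C2, which carries the green fluorescent protein alone. In the overexpression group, 3 arrays measured cells given pEGFP-CXXC5, which carries CXXC5 joined to the same tag. Both plasmids were delivered by nucleofection, an electroporation method, and expression from them was transient. All cells stood in medium without serum but with recombinant Wnt3a at 100 ng/ml, and RNA was taken after 8 h, so neither group measured cells without Wnt3a. The other 6 arrays, 3 with a scrambled shRNA and 3 with shRNA against CXXC5, came from stable lentiviral infection under the same Wnt3a treatment. They entered the estimate of the spread, gave a second contrast that shares no array with this one, and are given as levels beside those of the 2 nucleofected groups. The labels do not say whether the replicates were separate cultures, and the p-values rest on the variation among these arrays, part of which may come from the technique alone.

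CXXC5 is a small protein with a zinc-binding CXXC domain that recognises DNA with unmethylated CpG pairs. It is known to bind Dishevelled in the cytoplasm and to dampen Wnt/beta-catenin signalling there, and it has been described as a BMP-induced gene and as a nuclear regulator of transcription. CXXC5 itself had no probe set among those used here, so the rise of its own RNA was not measured here and the groups are called by their labels. The values are log2 expression values, on which a difference of 1 is 2-fold.

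The 6 arrays resembled each other closely. Replicates of a group correlated at 0.9967 to 0.9977 over all probe sets, and array medians lay between 6.67 and 6.71. The 3'-to-5' difference of the GAPDH control, a sign of RNA quality, was 0.227 to 0.309. The shRNA arrays, which enter the spread, ranged from 0.233 to 0.335 apart from scrambled shRNA replicate 3, at 0.87. The poly-A RNAs spiked in before labelling had a mean of 7.46 in overexpression replicate 3 and 7.80 to 8.08 in the other 5 arrays. Of 13 measured K562 markers, the embryonic globin HBZ stood between 11.84 and 12.28, the globin HBE1 between 11.04 and 11.39, and the transferrin receptor TFRC between 13.14 and 13.63 in these 6 arrays, and the list's mean level was 9.39 to 9.46 with empty vector and 9.35 to 9.41 with overexpression. The list means of markers of other cells were 4.91 to 5.14 with empty vector and 4.94 to 5.13 with overexpression for 6 endothelial genes, and 5.36 to 5.41 and 5.43 to 5.59 for 6 monocyte genes. For 11 lymphoid genes they were 5.94 to 6.00 and 6.10 to 6.20. For 10 fibroblast genes they were 6.41 to 6.52 and 6.34 to 6.51. For 6 epithelial genes they were 9.11 to 9.19 and 9.19 to 9.25, near those of the K562 list. One of these genes, KRT18, had means of 12.06 with empty vector and 12.24 with overexpression.

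With overexpression, 628 of 11963 genes (5.25%) passed adjusted p under 0.05 in limma, each gene read from its brightest probe set: 339 rose (2.83%) and 289 fell (2.42%). Over single probe sets the count was 861 of 19064 (4.52%), with 468 higher and 393 lower. The 3 overexpression and 3 empty vector values did not overlap in any of the 628 genes, and they did not overlap in 27.9% of all genes. Most changes were small. The median size was 0.44 log2 for rises and 0.39 for falls, and 212 of the 339 rises and 212 of the 289 falls were under 0.5. At least 1 log2 was reached by 16 rises and 11 falls. The median change over all genes was 0.0013, and the median standard error was 0.0896. In the quintile of genes with the lowest mean levels, up to 4.93, 1.5% were called, against 8.74% of those between 8.12 and 9.67 and 6.14% of those above. Among called genes with more than 1 probe set, 57 of 138 rises and 36 of 102 falls had a further probe set called the same way, and 0 had one called the opposite way.

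**Figure D1:**
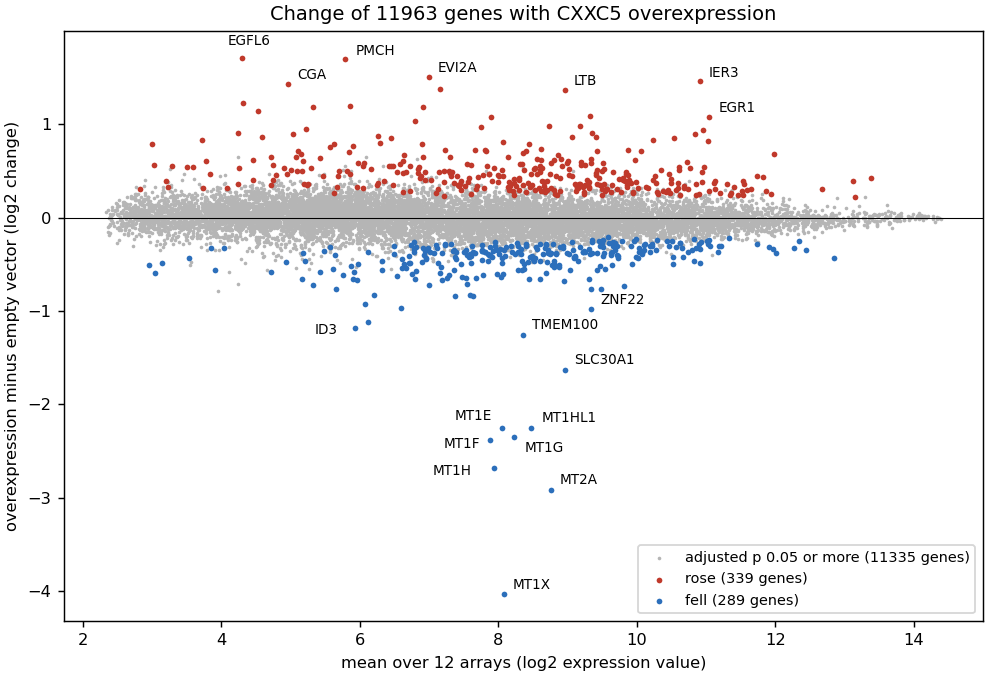
Change with CXXC5 overexpression, as overexpression minus empty vector on the log2 scale, against the mean log2 expression value over 12 arrays, with 1 point per gene. Red points are the 339 genes that rose and blue points the 289 that fell. The 7 metallothioneins that fell and SLC30A1 lie below every other gene, while no rise passes 1.71.

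The metallothioneins fell furthest. Their products hold zinc and copper through many cysteines and buffer free metal in the cell. The transcription factor MTF1 senses zinc and binds metal response elements in their promoters, and in the promoter of SLC30A1, the exporter that moves zinc out of the cell. Of 10 measured metallothionein genes, 7 fell and 0 rose, with a median change of -2.30 over the 10. That is 70% called, beside 5.25% of all genes. Promoters of MT1X, MT2A and MT1H, in the metallothionein cluster on chromosome 16, and of SLC30A1 on chromosome 1 are printed because these genes fell together. Of the 8 largest falls, these are the 4 with a promoter in the table. Each is the 250 bases before the start of the gene, 5′ to 3′ on the gene's strand, from RefSeq on GRCh38.p14. Capitals mark the core of the metal response element, searched as TGCACNC or TGCGCNC on both strands, so that it reads GNGTGCA or GNGCGCA on the other one. They lie at chr16:56682220-56682469 (plus strand), chr16:56608334-56608583 (plus), chr16:56669564-56669813 (plus) and chr1:211579162-211579411 (minus).
MT1X: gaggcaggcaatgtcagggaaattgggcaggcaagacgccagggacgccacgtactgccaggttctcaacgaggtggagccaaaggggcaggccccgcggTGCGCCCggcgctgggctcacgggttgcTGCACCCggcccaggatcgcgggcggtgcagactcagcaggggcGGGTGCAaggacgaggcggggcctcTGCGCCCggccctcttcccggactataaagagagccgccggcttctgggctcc
MT2A: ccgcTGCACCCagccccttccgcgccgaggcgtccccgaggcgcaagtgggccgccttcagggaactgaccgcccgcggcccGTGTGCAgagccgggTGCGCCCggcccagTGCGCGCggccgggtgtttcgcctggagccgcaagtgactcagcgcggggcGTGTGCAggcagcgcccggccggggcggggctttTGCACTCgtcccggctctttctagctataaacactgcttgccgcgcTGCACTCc
MT1H: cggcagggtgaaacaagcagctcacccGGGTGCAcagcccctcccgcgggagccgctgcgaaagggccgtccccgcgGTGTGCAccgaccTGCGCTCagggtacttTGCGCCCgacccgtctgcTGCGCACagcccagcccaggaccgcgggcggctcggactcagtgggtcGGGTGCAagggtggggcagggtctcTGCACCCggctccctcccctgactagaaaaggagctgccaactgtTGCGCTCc
SLC30A1: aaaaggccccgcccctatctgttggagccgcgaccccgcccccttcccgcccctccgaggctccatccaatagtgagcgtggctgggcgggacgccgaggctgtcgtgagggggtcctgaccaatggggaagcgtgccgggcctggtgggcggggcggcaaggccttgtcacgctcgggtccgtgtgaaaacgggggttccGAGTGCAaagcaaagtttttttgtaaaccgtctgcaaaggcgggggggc

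The core occurred 4 times in the MT1X window, 7 times in MT2A, 8 times in MT1H and once in SLC30A1. Of all 27305 promoter windows of that length in the table, 24.7% held it at least once and 0.366% at least 4 times. Among measured genes with a window these shares were 31.1% and 0.46%. At least 1 match was held by 35.7% of the falls and 27.5% of the rises with a window. Of genes that rose, EGFL6, EGR1 and LTB held 1 match each, as SLC30A1 did, and PMCH held 0. MT4, a family member of stratified epithelium whose values did not change past the threshold, held 3 matches. A match to these letters is a description of the sequence and shows no binding.

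MT1X stood at 10.12, 10.95 and 10.57 in the empty vector arrays and at 6.53, 6.45 and 6.57 in the overexpression arrays. The groups were far apart, and the empty vector arrays spread more widely than the overexpression arrays. The change was -4.03 (SE 0.157, adjusted p = 8.4e-08, 16.3-fold lower). MT2A, the most widely expressed member in most tissues, stood at 10.07, 11.08 and 10.73 against 7.71, 7.65 and 7.79, a change of -2.91 (SE 0.192, adjusted p = 6.33e-06). MT1H changed by -2.68, MT1F by -2.39, MT1G by -2.35, and MT1E and the MT1H-like gene MT1HL1 by -2.25 each, with adjusted p of at most 0.000248. In all 7, empty vector replicate 1 was the lowest of its group and still above every overexpression array. These 7 values come from probe sets of the type that can bind transcripts of several family members, so a gene's own share of the fall is uncertain. A second MT1X probe set was at -4.24, a second MT1F at -2.73 and a second MT1E at -2.42, and all 3 were called. A second MT1G probe set, dim at a mean of 4.27, was at -0.14 and was not called. MT1M, MT3 and MT4 stood at -0.29, 0.03 and -0.14, with adjusted p of 0.163, 0.938 and 0.744. MT3, the growth inhibitory factor of brain, was between 5.52 and 6.02 in these 6 arrays, and MT1M was dim, between 2.84 and 3.28.

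The zinc exporter SLC30A1 stood at 9.68, 9.87 and 9.70 with empty vector and at 8.20, 8.18 and 7.97 with overexpression. The groups did not overlap, and the change was -1.63 (SE 0.0871, adjusted p = 1.2e-06, 3.09-fold lower). Of the 22 measured genes of zinc and copper transport with MTF1, 2 fell and 0 rose, the other being the copper importer SLC31A1 at -0.33 (adjusted p = 0.0376). That is 9.09% of the list called, beside 5.25% of all genes. The SLC31A1 call ended when any of the 6 arrays was left out. MTF1 itself stood at -0.14 and was not called. RNA came from whole cultures, so a large change in some cells and a smaller one in all of them cannot be told apart.

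The other 6 arrays give further levels of these genes, under another way of delivery. MT1X had means of 7.24 with scrambled shRNA and 8.04 with CXXC5 shRNA, against 10.55 with empty vector and 6.52 with overexpression. The 3 empty vector arrays were above all 9 others for each of the 7 metallothioneins that fell. The overexpression arrays were also below all 9 others for 6 of them, MT1E being the exception, but by smaller margins. For SLC30A1 the empty vector mean of 9.75 was close to that of the CXXC5 shRNA arrays, 9.59, and the overexpression mean of 8.12 was close to that of scrambled shRNA, 8.41. Over all 11963 genes, 9 (0.0752%) had empty vector arrays highest and overexpression arrays lowest of the 12, and all 9 were called. They were 6 metallothioneins, SLC30A1, IRF1 and TAP1, the last named after its values were seen. The shRNA arrays came from stable infection and both plasmid groups from nucleofection. Which plasmid group departed from an untreated level therefore cannot be told apart from the way of delivery.

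The shRNA arrays also give a contrast that shares no array with this one, CXXC5 shRNA minus scrambled shRNA. The overexpression change minus that knockdown change was -4.83 for MT1X (SE 0.221, adjusted p = 1.94e-07) and -2.80 for SLC30A1 (SE 0.123, adjusted p = 1.44e-07). All 7 metallothioneins that fell passed this test of the difference, which 17.5% of all genes passed. The difference contains the overexpression change by which these genes were picked, so their passing adds no independent support. The knockdown change itself was 0.80 for MT1X and 1.18 for SLC30A1, both called, and it was not called for MT2A (0.35, adjusted p = 0.291).

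**Figure D2:**
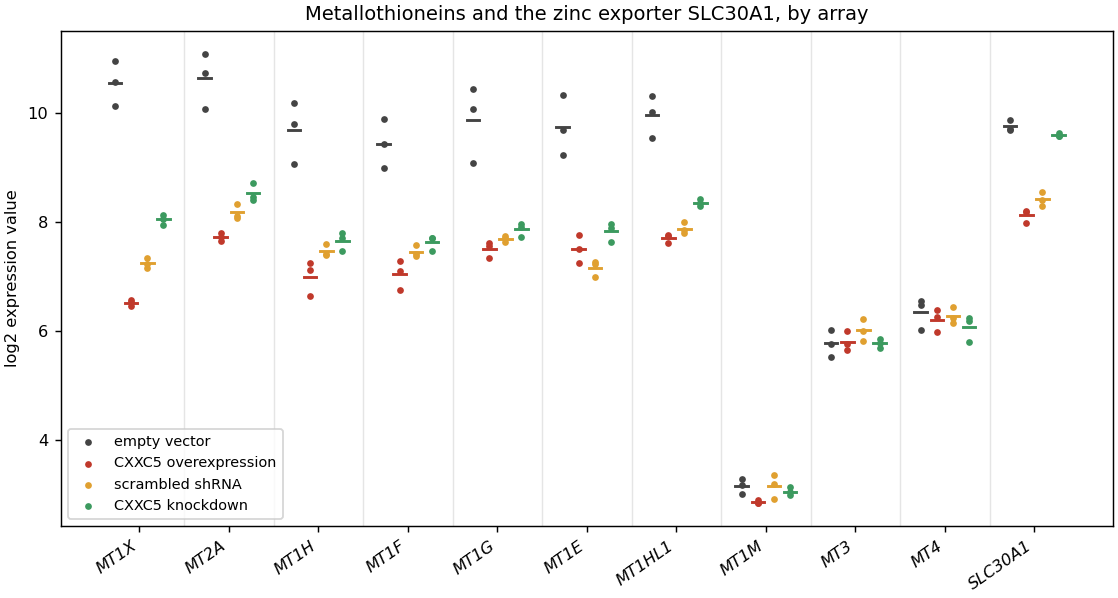
Log2 expression values of the 10 measured metallothioneins and SLC30A1 in each of the 12 arrays, with a bar at each group's mean. For the 7 genes from MT1X to MT1HL1 the empty vector points stand above all others, while MT1M, MT3 and MT4 show no such gap.

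Targets and feedback genes of BMP and TGF-beta signalling followed among the falls. BMP ligands act through SMAD proteins, which switch on ID genes and the inhibitory SMADs that limit the signal. Of 25 measured targets 4 fell and 2 rose, with a median change of 0.015. That is 24% called, beside 5.25% of all genes. TMEM100, a membrane protein induced by BMP signalling in endothelium, stood at 9.01, 8.97 and 8.84 with empty vector and at 7.82, 7.68 and 7.55 with overexpression. The groups did not overlap, and the change was -1.25 (SE 0.118, adjusted p = 0.000112). ID3, which blocks bHLH transcription factors, stood at 6.44, 6.36 and 6.31 against 5.46, 5.11 and 4.997, a change of -1.18 (SE 0.118, adjusted p = 0.000171). ID3 was lower in the overexpression arrays than in all 9 others. SMAD7, the inhibitory SMAD, changed by -0.68 and was named after its values were seen. SKIL, a SMAD co-repressor, changed by -0.83 at its brightest probe set and by -1.30 at a dimmer one.

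ID family members went different ways. ID1 stood at 7.44, 7.57 and 7.56 with empty vector and at 8.11, 8.33 and 8.30 with overexpression, a rise of 0.73 (SE 0.185, adjusted p = 0.0493). ID2 rose by 0.46 (adjusted p = 0.0239). The ID1 and SKIL calls ended when any of the 6 arrays was left out, and the ID2 call ended with any 1 of 4 of them left out. TMEM100, ID3 and SMAD7 kept their calls in each case. The difference from the knockdown change, which contains the overexpression change itself, was -2.08 for TMEM100, -2.07 for ID3 and -1.42 for SMAD7. Its adjusted p was at most 1.21e-05.

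IRF1 and the 3 immunoproteasome subunits fell. Interferon gamma induces IRF1, which in turn drives the catalytic subunits of the immunoproteasome and the TAP transporter, which supplies peptides for HLA class I. IRF1 stood at 7.85, 7.81 and 7.80 with empty vector and at 7.22, 7.14 and 6.98 with overexpression. The change was -0.71 (SE 0.0704, adjusted p = 0.000169), with the empty vector arrays above and the overexpression arrays below all others. PSMB9 stood at 7.28, 7.23 and 7.05 against 6.37, 6.19 and 6.07, a change of -0.97 (SE 0.105, adjusted p = 0.000312). PSMB8 changed by -0.64 and PSMB10 by -0.30 (adjusted p = 0.0179). These 3 immunoproteasome subunits were the whole of the calls among 34 measured proteasome genes, whose median change was -0.034. They made up 8.82% of that list, beside 5.25% called over all genes. The constitutive subunits that they replace, PSMB5, PSMB6 and PSMB7, stood at 0.02, 0.01 and 0.02.

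The transporter genes TAP1 and TAP2 changed by -0.37 and -0.30, the peptide-trimming enzyme ERAP1 by -0.43 and the ubiquitin-like conjugating enzyme UBE2L6 by -0.35, all 4 named after their values were seen. The other 2 TAP2 probe sets, at -0.11 and 0.17, and the other 4 ERAP1 probe sets, at -0.27 to 0.28, were not called. Averaging all probe sets of a gene ended both calls, with TAP2 at -0.08 and ERAP1 at -0.12. The calls of PSMB10 and ERAP1 ended with any 1 of 4 arrays left out, and those of TAP2 and UBE2L6 with any 1 of the 6. Of 40 measured interferon-stimulated genes, 5 fell (PSMB9, IRF1, PSMB8, TAP1 and DDX60, the last named after its values were seen) and 1 rose, CXCL10 at 0.79, and the median change was -0.034. These calls made up 15% of the 40, beside 5.25% of all genes. At unadjusted p under 0.05 there were 14 of the 40, against 19.5% of all genes. ISG15 and IFIT1, which type I interferon induces strongly, stood at -0.26 and -0.21 and were not called, and the HLA genes HLA-B and HLA-C at 0.01 and -0.10. The empty vector arrays were above all 9 others for PSMB9, whose means were 6.18 with scrambled shRNA and 6.83 with CXXC5 shRNA.

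The remaining genes among the 15 largest falls have varied roles. RASGRP1, an activator of RAS, changed by -1.12 (SE 0.132), and ZNF22, a zinc finger protein, by -0.98 (SE 0.0759), with a second ZNF22 probe set at -0.99. ZNF22 stood at 9.93, 9.80 and 9.78 with empty vector and at 9.01, 8.77 and 8.79 with overexpression. NEK3, a kinase of the NIMA family, changed by -0.92, and SMARCD3, a subunit of the SWI/SNF chromatin remodelling complex, by -0.84. In RASGRP1, ZNF22, NEK3 and SMARCD3 the scrambled shRNA mean was close to or below the overexpression mean, at 5.65, 8.71, 5.50 and 6.86. Outside the 15 largest falls, GCLM, the modifier subunit of the enzyme that starts glutathione synthesis, stood at 10.01, 10.11 and 9.82 against 9.39, 9.22 and 9.15, a change of -0.73 (SE 0.0915, adjusted p = 0.000981). GCLM was the single call among 27 genes of oxidative stress and NRF2, 3.7% of them, beside 5.25% of all genes. The list's median change was 0.008, and HMOX1, a haem-degrading enzyme that metals and oxidants induce, stood at 0.08. CD24, a mucin-like surface protein, changed by -0.43 at its brightest probe set, and all 6 of its probe sets were called, at -0.43 to -0.57.

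The largest rises divide by the level of the other arrays. In 10 of the 15, the overexpression arrays stood above all 9 others, and in the other 5 the scrambled shRNA arrays reached or passed them. Over all 339 rises, the overexpression arrays alone stood apart in 104, the empty vector arrays alone (as the lowest) in 119, both in 6 and neither in 110. The same positions were taken by 2.88%, 3.45% and 0.0502% of all genes for the first 3 kinds. Among the 289 falls the overexpression arrays alone were lowest in 61, a position of 2.65% of all genes, and the empty vector arrays alone highest in 76, a position of 3.03%.

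EGFL6, a secreted protein with EGF repeats, stood at 3.83, 3.87 and 3.68 with empty vector and at 5.31, 5.71 and 5.50 with overexpression. The rise was 1.71 (SE 0.0931, adjusted p = 1.25e-06), and the means of the shRNA arrays, 4.04 and 3.86, lay with the empty vector. PMCH, the precursor of melanin-concentrating hormone, stood at 5.72, 5.65 and 5.60 against 7.38, 7.33 and 7.36, a rise of 1.70 (SE 0.0709, adjusted p = 1.28e-07). Its antisense-derived relative PMCHL1, named after its values were seen, rose by 0.35, and its probe set may also bind PMCH transcripts. The PMCHL1 call ended with any 1 of 4 arrays left out. CGA, the common alpha subunit of the glycoprotein hormones, stood at 4.24, 4.48 and 5.24 against 6.32, 6.13 and 5.79, a rise of 1.43 (SE 0.22, adjusted p = 0.0033). EGFL6, PMCH and CGA belong to a list of 39 measured secreted hormone and peptide genes, of which 5 rose and 1 fell. That is 15.4% called, beside 5.25% of all genes. NTS, the neurotensin precursor, and the hormone STC1 rose by 0.48 and 0.44, and INHA, the inhibin alpha subunit, fell by 0.63. The STC1 call ended when any of the 6 arrays was left out.

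EVI2A, a membrane protein gene that lies inside an intron of NF1, stood at 6.69, 6.74 and 6.59 with empty vector and at 8.18, 8.26 and 8.10 with overexpression. The groups did not overlap, and the rise was 2.84-fold (SE 0.0947 on the log2 scale, adjusted p = 5.1e-06). EVI2B, its neighbour in the same intron, named after its values were seen, rose by 0.97 from 7.56, 7.65 and 7.47 to 8.50, 8.68 and 8.40. Both were above all 9 other arrays. NF1, which encodes the RAS inhibitor neurofibromin, stood at 0.19 (adjusted p = 0.37) on a dim probe set.

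The further 6 genes among the 15 largest rises were FCGR1BP, LY96, CCL20, PRSS2, NR5A2 and BRS3. FCGR1BP, a pseudogene of the high-affinity IgG receptor, rose by 1.38 (SE 0.112), and its probe set may also read the functional relative. The value read for FCGR1A stood at -0.04, and probe sets paired with several symbols were not assigned to a gene. Which of these related genes rose therefore cannot be told apart. LY96, the partner of the endotoxin receptor TLR4, stood at 6.07, 6.12 and 6.04 against 7.33, 7.31 and 7.17, a rise of 1.19 (SE 0.163, adjusted p = 0.00154). Its shRNA arrays were below both groups, with means of 4.72 and 5.37, and its difference from the knockdown change, 0.54, was not called (adjusted p = 0.142). CCL20, a chemokine for cells with the receptor CCR6, rose by 1.22 from 4.04, 3.75 and 4.10 to 5.26, 5.28 and 5.02. PRSS2, a trypsinogen, rose by 1.08, NR5A2, a nuclear receptor known as LRH-1, by 1.18, and BRS3, a bombesin-family receptor, by 1.14. Trypsinogen genes are nearly identical, so the PRSS2 probe set may read several. A dim NR5A2 probe set rose by 0.54, and another stood at 0.27 without a call.

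**Figure D3:**
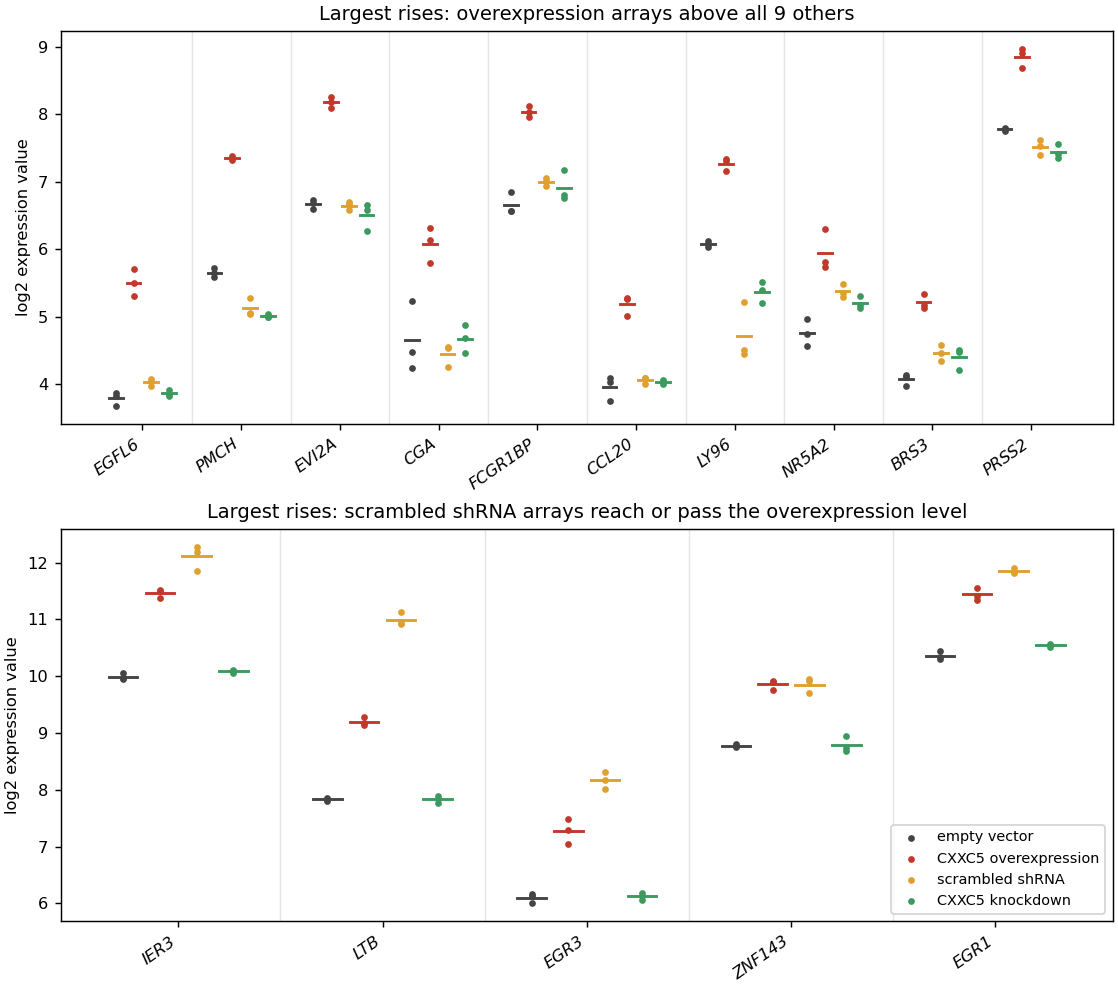
Log2 expression values in each of the 12 arrays for the 15 genes with the largest rises, with a bar at each group's mean. In the upper panel the red overexpression points lie above all others, and in the lower panel the scrambled shRNA points of IER3, LTB, EGR3, ZNF143 and EGR1 are as high or higher.

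Some growth factor response genes rose as well, 12 in all over both lists given here, and in 11 of them the overexpression mean lay between those of empty vector and scrambled shRNA. The exception was ETV1, whose overexpression mean of 8.604 was above both, at 7.95 and 8.03. ERK signalling and serum response factor switch on EGR and FOS genes within minutes, and their products then induce feedback inhibitors such as NAB2, Sprouty proteins and DUSP phosphatases. Of 28 measured immediate early transcription factors and co-repressors 7 rose and 1 fell, with a median change of 0.16. That is 28.6% called, beside 5.25% of all genes. EGR1 stood at 10.44, 10.31 and 10.34 with empty vector and at 11.56, 11.34 and 11.42 with overexpression, a rise of 1.08 (SE 0.0692, adjusted p = 5.79e-06). EGR3 stood at 6.17, 6.12 and 6.00 against 7.49, 7.05 and 7.30, a rise of 1.18 (SE 0.108, adjusted p = 9.23e-05). The small MAF protein gene MAFF rose by 0.98, NAB2, which binds and restrains EGR proteins, by 0.71, FOS by 0.52, JUND by 0.44 and IER2 by 0.31. The Notch target HES1 fell by 0.66. FOS, JUND and HES1 were named after their values were seen, as was IER2. The FOS call ended with any 1 of the 6 arrays left out, and the other calls named with a rise above 0.4 did not. JUN, MYC and SRF stood at 0.08, 0.08 and 0.16 and were not called.

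Of 23 measured feedback genes of ERK signalling 5 rose and 1 fell, or 26.1% called, beside 5.25% of all genes. IER3, which prolongs ERK activity and restrains cell death, stood at 10.06, 9.95 and 9.97 against 11.49, 11.37 and 11.52, a rise of 1.47 (SE 0.0967, adjusted p = 6.33e-06). SPRY4, an inhibitor of receptor signalling to RAS, stood at 8.81, 8.80 and 8.81 against 9.69, 9.65 and 9.68, a rise of 0.87 (SE 0.0641, adjusted p = 2.03e-05). PHLDA1 rose by 0.71, and ETV1 and SPRY2 by 0.65 and 0.34, with calls that ended with any 1 of the 6 arrays left out. The phosphatase genes DUSP1, DUSP5 and DUSP6 stood at -0.09, 0.29 and 0.20 and were not called.

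Of these 12 rises, 11 fell in the knockdown contrast, and ETV1 stood at -0.06 there (adjusted p = 0.869). The share of all genes that fell in that contrast is not given here, so the 11 cannot be set against it. All 12 passed the test of the difference from the knockdown change, ETV1 at adjusted p = 0.049. That difference contains the overexpression change by which the 12 were picked, so their passing adds no independent support. The difference was 3.22 for EGR3, 2.39 for EGR1, 2.50 for MAFF, 3.49 for IER3 and 1.86 for SPRY4, with adjusted p of at most 5.56e-07. Over the whole lists it was called for 18 of the 28 immediate early genes and 10 of the 23 feedback genes, against 17.5% of all genes. The scrambled shRNA means were 11.85 for EGR1, 8.16 for EGR3 and 12.11 for IER3, each above the overexpression mean, and the CXXC5 shRNA means were 10.54, 6.13 and 10.09, close to empty vector.

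NF-kappaB is a transcription factor of inflammation that IkappaB proteins hold in the cytoplasm. Of 25 measured pathway members and targets 4 rose and 1 fell, or 20% called, beside 5.25% of all genes. LTB, lymphotoxin beta, stood at 7.86, 7.83 and 7.81 with empty vector and at 9.27, 9.15 and 9.17 with overexpression, a rise of 1.36 (SE 0.0721, adjusted p = 1.2e-06). IL6 rose by 0.72, the caspase-8 inhibitor CFLAR by 0.54 and the adhesion receptor ICAM1, named after its values were seen, by 0.34. The ICAM1 call ended with any 1 of 5 arrays left out. With scrambled shRNA the means of LTB, IL6, CFLAR and ICAM1 were 10.995, 7.93, 11.21 and 9.74. Each was above its overexpression mean, at 9.196, 7.46, 10.67 and 8.625. The inhibitors NFKBIA and TNFAIP3, which NF-kappaB induces as its own brakes, stood at 0.00 and -0.15 and were not called, and the subunits NFKB1 and RELA stood at 0.03 and -0.07. The list's median change was 0.028.

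Of 41 measured chemokine and interleukin genes, 5 rose and 2 fell, or 17.1% called, beside 5.25% of all genes. Besides CCL20 and IL6, CXCL10 stood at 6.29, 6.36 and 6.24 against 7.11, 7.01 and 7.14, a rise of 0.79 (SE 0.0741, adjusted p = 0.00011). CCL5, which attracts T cells, also rose by 0.79, from 5.80, 5.65 and 5.59 to 6.70, 6.19 and 6.52, and its second probe set rose by 0.92. IL16 rose by 0.50, and CCL2 and IL15 fell by 0.41 and 0.46. IL16, CCL2 and IL15 were named after their values were seen, and leaving out 1 array ended each of these 3 calls for at least 3 of the 6. The neutrophil chemokines CXCL1, CXCL2 and CXCL8 stood at 0.37, -0.04 and 0.23 and were not called. CXCL10 had means of 8.56 with scrambled shRNA and 5.67 with CXXC5 shRNA, and its difference from the knockdown change, 3.68 (SE 0.105, adjusted p = 2.13e-09), was among the 5 largest.

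Among the blood lineage lists, calls made up 33.3% of 6 globin genes, 19.4% of 31 myeloid genes, 12.5% of 24 erythroid membrane genes and enzymes, 11.5% of 26 transcription factors, 10.5% of 19 genes of haem synthesis and iron uptake and 3.85% of 26 megakaryocyte genes, beside 5.25% of all genes. Haemoglobin is made with haem and with iron taken up through TFRC. TFRC stood at 13.16, 13.25 and 13.14 with empty vector and at 13.63, 13.60 and 13.62 with overexpression, a rise of 0.43 (SE 0.0555, adjusted p = 0.00114), and its second probe set rose by 0.84. ALAS1, the housekeeping form of the first haem enzyme, rose by 0.36, and its call ended with any 1 of 4 arrays left out. These 2 were the calls among 19 measured genes of haem synthesis and iron uptake, whose median change was -0.011. Of 6 globin genes HBZ fell by 0.35 and HBE1 rose by 0.27, and the HBE1 call ended with any 1 of the 6 arrays left out. Of 26 blood cell transcription factors CEBPA, a granulocyte factor, fell by 0.39, and GATA2 and SPI1 rose by 0.30 and 0.32. The CEBPA call ended with any 1 of 3 arrays left out, and those of GATA2 and SPI1 with any 1 of 5. The erythroid factors GATA1, KLF1 and TAL1 stood at -0.29, -0.20 and -0.12 and were not called.

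Of 31 myeloid genes 5 rose and 1 fell, with a median change of 0.128. Besides LY96 and FCGR1BP these were FCGR2A, a low-affinity IgG receptor, at 0.69, the neutrophil protease PRTN3 at 0.47, and the oxidase subunit NCF4 at 0.37, while the adaptor TYROBP fell by 0.32. NCF4 and TYROBP were named after their values were seen. MPO and CD14 stood at -0.01 and -0.03. Of 24 erythroid membrane genes and enzymes 2 rose and 1 fell, ICAM4 at 0.33, SPTB at 0.29 and XK at -0.23, and of 26 megakaryocyte genes NRGN rose by 0.24. The calls of SPTB, XK and NRGN ended with any 1 of the 6 arrays left out, and those of ICAM4 and NCF4 with any 1 of 5. For TYROBP 3 such arrays ended the call, and for PRTN3 2.

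Wnt pathway genes were measured here only under Wnt3a. Wnt ligands bind Frizzled and LRP receptors, Dishevelled then stops the AXIN and APC destruction complex, and beta-catenin enters the nucleus to act with TCF and LEF factors. Of 22 measured targets 2 rose and 0 fell, LEF1 at 0.28 (adjusted p = 0.0212) and ID2, with a median change of 0.073. The LEF1 call ended with any 1 of 4 arrays left out. CCND1, MYC and LGR5 stood at 0.27, 0.08 and 0.18 and were not called, and AXIN2 and NKD1 were not analysed here. Of 37 receptors and transducers 2 rose and 2 fell, AXIN1 at 0.29, the kinase TNIK at 0.24, the receptor FZD3 at -0.56 and APC at -0.31, and each of these 4 calls ended with any 1 of the 6 arrays left out. The Dishevelled genes DVL1, DVL2 and DVL3, which encode the known binding partners of CXXC5, stood at 0.03, 0.04 and 0.02. CXXC4, its closest relative, stood at -0.10. Of 17 CpG-binding and DNA methylation factors DNMT3B fell by 0.35 (adjusted p = 0.00824), from 10.32, 10.29 and 10.28 to 10.02, 9.97 and 9.86, and it kept its call whichever of the 6 arrays was left out. Calls made up 9.09% of the targets and 10.8% of the receptors and transducers. They made up 5.88% of the CpG-binding list, near the 5.25% of all genes.

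**Figure D4:**
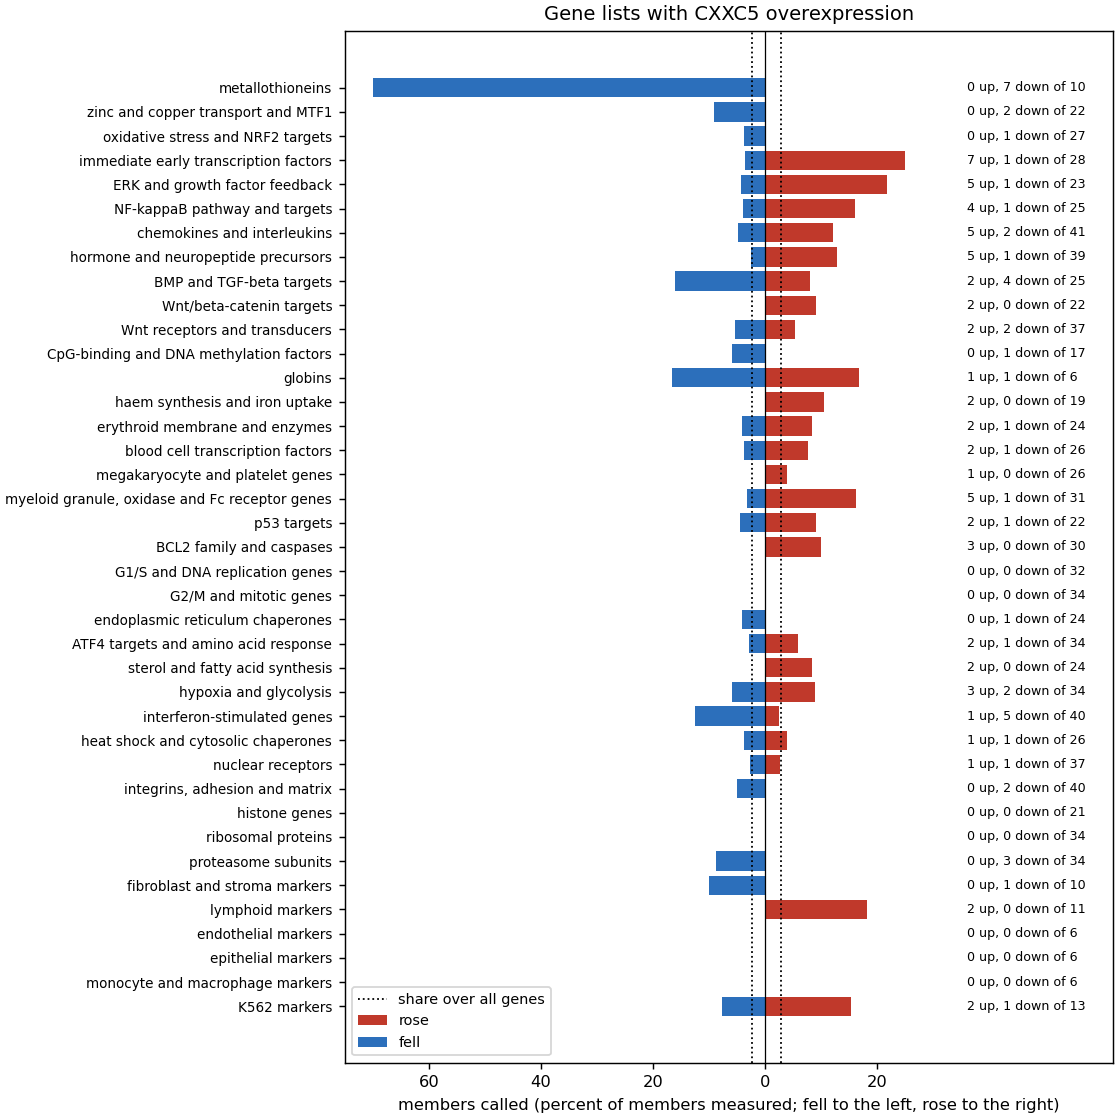
Percent of the measured members of 39 gene lists that rose (right, red) or fell (left, blue) with CXXC5 overexpression, with dotted lines at the shares over all genes, 2.83% and 2.42%. The metallothionein bar, at 7 of 10 members down, is the longest, and most other lists hold 0 to 3 calls.

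Stress and survival genes gave scattered calls. Calls made up 10% of the BCL2 and caspase list, 13.6% of p53 targets, 8.82% of ATF4 targets and 14.7% of hypoxia and glycolysis genes. Over all genes the share was 5.25%. Of 30 genes of the BCL2 family and caspases 3 rose, CFLAR, BNIP3L at 0.60 and BCL2L1 at 0.31, and 0 fell. Of 22 p53 targets GDF15, a stress cytokine, rose by 0.94 and the cell cycle inhibitor CDKN1A by 0.53, while the kinase PLK2 fell by 0.53. GDF15 stood at 10.24, 9.86 and 9.90 against 11.04, 10.81 and 10.97, and its scrambled shRNA mean was 12.09. Of 34 ATF4 targets GDF15 and the amino acid transporter SLC38A2 (0.40) rose and ATF5 (-0.44) fell. Of 34 hypoxia and glycolysis genes 3 rose, BNIP3L, the glucose transporter SLC2A3 at 0.40 and MXI1 at 0.32, and 2 fell, ENO2 at -0.57 and HK2 at -0.30. Leaving out any 1 of 5 arrays ended the calls of BCL2L1, MXI1 and ENO2, any 1 of 4 those of PLK2 and SLC38A2, any 1 of 3 that of SLC2A3 and either of 2 that of HK2.

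Of 24 sterol and fatty acid genes INSIG1, which restrains cholesterol synthesis, rose by 0.54 and ELOVL6, a fatty acid elongase, by 0.32. Of 26 heat shock genes HSPA6 rose by 0.55 and the collagen chaperone SERPINH1 fell by 0.56. Of 24 endoplasmic reticulum chaperones HSPA5 fell by 0.25, and leaving out any of the 6 arrays ended this call. The difference from the knockdown change was called for 14 of the 24, against 17.5% of all genes. That difference also contains the knockdown change, which for HSPA5 was 0.85. Of 37 nuclear receptors NR5A2 rose and NR2F1 fell by 0.57. Of 40 integrin, adhesion and matrix genes FN1 fell by 0.49 and LAMB1 by 0.36. FN1, fibronectin, is also the single call among the 10 fibroblast markers, and stood at 10.74, 10.76 and 10.77 with empty vector. Among 11 lymphoid markers PRF1 rose by 0.51 and CD3D by 0.38, with CD3D between 10.73 and 11.27 in all 6 arrays. The calls of NR2F1 and LAMB1 ended with any 1 of the 6 arrays left out, that of CD3D with any 1 of 5 and that of ELOVL6 with 1. Calls made up 8.33% of the sterol list, 7.69% of the heat shock list, 10% of the fibroblast markers and 18.2% of the lymphoid markers. The endoplasmic reticulum, nuclear receptor and matrix lists, at 4.17%, 5.41% and 5%, were near the 5.25% of all genes.

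Proliferation and housekeeping lists gave no call by limma. They were 32 G1/S genes, 34 G2/M genes, 21 histone genes and 34 ribosomal protein genes, with 9, 4, 7 and 0 members at unadjusted p under 0.05, against 19.5% of all genes. The ribosomal protein genes stayed between -0.07 and 0.06. CCND3 and SLBP had the smallest p among the G1/S genes, at -0.24 and -0.20 (adjusted p = 0.0779 and 0.108). CCNF and PTTG1 had the smallest among the G2/M genes, at 0.29 and 0.20 (adjusted p = 0.0758 and 0.0932). The 6 endothelial, 6 epithelial and 6 monocyte markers held 0 calls, with 0, 2 and 2 at unadjusted p under 0.05.

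The number of calls rested on each of the 6 arrays. Over probe sets, the 861 calls became 383 to 559 when an array of either nucleofected group was left out. The lowest count, 383, came without empty vector replicate 2. Without overexpression replicate 3, the array with the low spike-in mean, 438 were left, and the share of rises among the calls went from 54.4% to 64.6%. The part of that array's labelling in the small changes was not tested. Without overexpression replicate 1 the share was 46.8%, so neither direction was the larger one in every case. The 15 largest rises and 15 largest falls kept their calls in all 24 alternatives that gave them a value, and 8 of these 30 genes had none under the filter on low means. They were picked as the largest called changes of the same arrays, so their kept calls are no independent evidence. Averaging all probe sets of a gene moved ZNF143 from 1.08 to 0.55, NR5A2 from 1.18 to 0.66, MT1G from -2.35 to -1.25, HES1 from -0.66 to -0.38, ETV1 from 0.65 to 0.33 and IL16 from 0.50 to 0.28. It ended the calls of APC, BCL2L1, HBE1, ICAM1, LEF1, SPTB and TNIK. All 7 metallothionein calls remained whichever of the 6 arrays was left out.

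**Figure D5:**
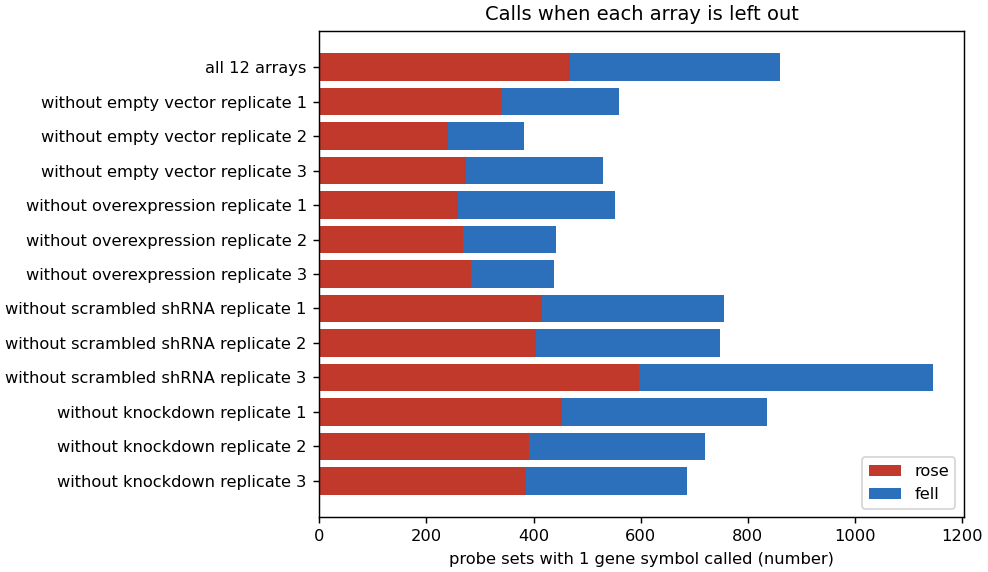
Number of probe sets called as risen (red) or fallen (blue) with all 12 arrays and with each array left out in turn, of 19064 with 1 gene symbol. The 6 bars without an empty vector or overexpression array run from 383 to 559, all below the 861 with all arrays.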

How the data were processed

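The authors deposited 1 log2 value for each probe set on each array, made with Affymetrix Expression Console, per the submitters' processing notes. The log2 scale was inferred from the range of the values. Its version and how probes were summarised are not stated in the labels. No scanner files were used, so background and detection could not be examined. Array medians lay between 6.65 and 6.71, so no further scaling was applied. For arrays no depth exists, and their number limits the precision.

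Of 22277 probe sets, 62 controls were left out. A platform annotation table paired 19064 of the other 22215 with 1 symbol, 1043 with several and 2108 with none. Of the 19064, 19052 were matched to RefSeq (GRCh38.p14) by gene identifier, and 12 kept the symbol given. A gene's value is that of its brightest probe set by the mean over 12 arrays, and 4310 of 11963 genes had more than 1. limma 3.58.1 in R 4.3.3 was fitted with 1 coefficient per group (lmFit, eBayes with its default prior, 8 residual degrees of freedom). Tests were two-sided, adjusted by Benjamini-Hochberg over all 22215 probe sets, and called at adjusted p under 0.05. Each p in the text is from this fit. The script was tested on simulated data. Promoters are the 250 bases before the start in a RefSeq table, with 1 per symbol. Sequences of MT1E, MT1F, MT1G and EVI2A were not used here. Figures were drawn with matplotlib 3.10.9.

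The members and the 39 gene lists were chosen with earlier results of these data known. Named were the 15 largest changes each way among called genes whose groups did not overlap, the 5 smallest p each way, every metallothionein, up to 4 called members of each list with the largest change (or 2 with the smallest p where none was called), the 5 largest differences from the knockdown change each way, and the 3 genes each way with the most probe sets called. List members given as not called, and genes said to be so, were chosen after their values were seen. Alternatives were other normalizations, filters, probe set summaries, priors, weights, thresholds, the 6 arrays alone, a replicate block and leaving out each array.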

Additional observations from a re-analysis of the deposited data

How the results depend on the processing

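Over probe sets, overexpression minus empty vector gave 861 calls. The count was 556 with the 6 nucleofected arrays alone, 1679 with array weights, 315 at adjusted p under 0.01, and 171 with a change of at least 1.5-fold. Leaving out 1 array gave 383 to 1146, the highest without scrambled shRNA replicate 3, which had a GAPDH 3'-to-5' difference of 0.87 and an array weight of 0.305. The part of its RNA quality in the counts was not tested. The shares of rises were 52.1% there and 48.5% with array weights, against 54.4%. The filter on the 40% of probe sets with the lowest mean gave 1212 calls with 47.5% rises. The difference from the knockdown change gave 2976 calls, 1541 at adjusted p under 0.01 and 1324 with at least 1.5-fold. MT3, at 0.03 and never called, changed sign to -0.0906 without empty vector replicate 1 and to -0.0675 without overexpression replicate 3, within a range of -0.0906 to 0.1613, and the cause was not tested. Deviations of the 2 nucleofected groups from their means correlated at 0.25, -0.008 and 0.304 for replicates 1, 2 and 3 with the same number. Overexpression replicate 1 with empty vector replicate 3 gave -0.318, and overexpression replicate 3 with empty vector replicate 1 gave -0.24. Whether the replicate numbers pair the arrays was not tested. A replicate block gave 906 calls, 771 of them shared. Of 122 named calls, 32 ended with the 6 nucleofected arrays alone, 10 with all probe sets of a gene averaged, 8 with the replicate block and 5 with quantile normalization. No alternative scaling moved the median change by over 0.1.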

Other observations

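Some genes of white blood cells were among the rises. They were picked after their values were seen and only among genes that rose, so they give no share of such genes. CD24 and TYROBP, described above, fell by 0.43 and 0.32. CD52, a small surface glycoprotein of lymphocytes and monocytes, stood at 10.62, 10.41 and 10.37 with empty vector and at 11.42, 11.11 and 11.32 with overexpression, a rise of 0.82 (SE 0.112, adjusted p = 0.00154). LAPTM5, a lysosomal membrane protein of blood cells, stood at 9.46, 9.53 and 9.40 against 10.26, 10.20 and 10.10, a rise of 0.72 (SE 0.0661, adjusted p = 9.23e-05). In both genes the 2 groups were apart. CD69, an early activation marker of lymphocytes, rose by 0.90, and AIM2, a sensor of DNA in the cytoplasm, by 1.03. GMFG, an actin regulator of blood cells, rose by 0.98 and CORO1A, a coronin of the same cells, by 0.42. The cytokine receptor chain IL2RG, the protease CTSS, the tetraspanin CD53 and the phosphatase PTPRC, known as CD45, rose by 0.42, 0.45, 0.36 and 0.28. Leaving out any 1 of the 6 arrays ended the calls of CTSS, CD53 and PTPRC, and any 1 of 4 that of IL2RG. A second CTSS probe set and 1 of 3 PTPRC probe sets were not called, and averaging all probe sets ended the PTPRC call and took CTSS to 0.29. For AIM2, CORO1A, CTSS, CD53 and PTPRC the overexpression arrays were above all 9 others. For CD52, LAPTM5, CD69 and GMFG the empty vector arrays alone stood apart, below all 9 others. These positions were held by 2.88% and 3.45% of all genes.

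Of 3151 probe sets with several gene symbols or none, 36 rose and 34 fell. The largest rise of any probe set was at one paired with several symbols, which is not named here. It stood at 4.55, 4.70 and 4.89 with empty vector and at 7.93, 7.85 and 7.61 with overexpression, a rise of 3.08 (SE 0.109, adjusted p = 5.23e-08, 8.48-fold). Its means were 4.30 with scrambled shRNA and 4.35 with CXXC5 shRNA. A probe set without a symbol in the table used here stood at 9.91, 9.57 and 9.48 with empty vector and at 8.22, 8.51 and 8.36 with overexpression, against means of 5.14 and 3.34 in the shRNA groups.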
